A study of Rattus norvegicus with 7 samples.

Results

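The miRNA cluster that runs from miR-17 to miR-92a, and its paralogs, were examined in primary rat skeletal muscle cells kept for 11 days in differentiation medium. The 10 mature miRNAs were chosen by name: rno-miR-17-5p, rno-miR-18a-5p, rno-miR-19a-3p, rno-miR-19b-3p, rno-miR-20a-5p, rno-miR-20b-5p, rno-miR-92a-3p, rno-miR-25-3p, rno-miR-93-5p and rno-miR-106b-5p, written without the species prefix from here on. All 10 were among the 719 miRNAs on the array, with 20 of its 1730 probes. The cells came from limb muscle of newborn rats and were bought frozen. They were moved to low-serum medium to differentiate. Per the sample titles, 3 samples were controls without treatment and 4 had recombinant interleukin-6 (IL-6) at 1 ng/ml, a cytokine that contracting muscle secretes. The growth protocol names IL-6 for every sample, controls included, so the groups rest on the titles and the design text. Each sample had 1 array with a single dye. Whether the replicates came from separate cultures is not stated in the labels, so each p-value speaks only of how far these samples spread, which may be technical.

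The cluster from miR-17 to miR-92a is transcribed as 1 primary RNA that is cut into several hairpins, and MYC and E2F factors are known to activate it. Its miRNAs lower the products of genes that hold back the cell cycle or promote cell death, such as Cdkn1a and Bcl2l11. In muscle the cluster is known for its link to dividing myoblasts, which leave the cell cycle before they fuse. A miRNA finds its targets mainly through its seed, bases 2 to 8 counted from its 5′ end. Members with the same seed can therefore share targets even when they come from different chromosomes.

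The sequences below, from RefSeq on the GRCr8 build, are shown because the members differ mainly by seed and because several differ by so few bases that array probes may not separate them. Capitals mark the seed.
miR-17-5p: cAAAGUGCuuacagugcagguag
miR-20a-5p: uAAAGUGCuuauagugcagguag
miR-20b-5p: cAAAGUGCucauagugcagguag
miR-93-5p: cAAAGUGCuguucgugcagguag
miR-106b-5p: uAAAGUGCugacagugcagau
miR-18a-5p: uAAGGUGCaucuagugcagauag
miR-19a-3p: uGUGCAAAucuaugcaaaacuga
miR-19b-3p: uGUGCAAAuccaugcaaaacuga
miR-25-3p: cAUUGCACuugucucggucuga
miR-92a-3p: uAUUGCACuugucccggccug

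The sequences fell into 4 seed families. The seed AAAGUGC was held by 5 members and by no other of the 693 rat mature miRNAs in the RefSeq table. The seed of miR-18a-5p, AAGGUGC, was found in that miRNA alone, and GUGCAAA only in the miR-19 pair. The seed AUUGCAC was shared by miR-25-3p and miR-92a-3p with 3 miRNAs outside the set, miR-32-5p, miR-92b-3p and miR-363-3p.

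The members lie in 3 groups of hairpins. On chromosome 15, on the plus strand, the order in RefSeq was Mir17, Mir18a, Mir19a, Mir20a, Mir19b1 and Mir92a1. On the X chromosome, on the minus strand, Mir106a, Mir20b, Mir19b2 and Mir92a2 followed each other in the direction of transcription. The rat Mir106a hairpin yields the same mature sequence as Mir17, so miR-17-5p, miR-19b-3p and miR-92a-3p each have 2 loci, and no signal of theirs can be assigned to 1 chromosome. On chromosome 12, Mir106b, Mir93 and Mir25 lie within the gene Mcm7, on its strand. Mcm7 encodes a subunit of the helicase that starts DNA replication.

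The array files placed probes on the rn4 build (positions as listed there), at chr15:99854210-99854227 for miR-20a-5p, chr12:17608195-17608209 for miR-93-5p and chrX:139741462-139741476 for miR-17-5p. Those of miR-20b-5p were listed as unmapped. The miR-92a-3p probe was listed at both chr15:99854493-99854509 and chrX:139740860-139740876.

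All 20 probes are DNA oligos of 15 to 21 bases that pair with the 3′ end of their miRNA without a mismatch. The longer probe of each member was the brighter and was the one used. Some members differ by a single base under the probe. Positions in the miRNAs are counted from the 5′ end: miR-19a-3p and miR-19b-3p differ by U11C alone, and miR-20a-5p and miR-20b-5p by U1C and U10C. The probes used for those pairs are shown with the base that differs from the partner's probe in capitals.
miR-19a-3p probe: tcagttttgcatAgatttgca
miR-19b-3p probe: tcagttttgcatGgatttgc
miR-20a-5p probe: ctacctgcactatAagcac
miR-20b-5p probe: ctacctgcactatGagcact

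The miR-17-5p probe also pairs with miR-20a-5p with 1 mismatch. The miR-92a-3p probe pairs with miR-25-3p with 2. The share of each signal that comes from a near relative was not tested, so the members of a seed family cannot be taken as separate measurements.

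Of the 719 miRNAs, 174 to 185 were detected on the control arrays and 179 to 207 on the IL-6 arrays. Of 7 muscle-specific miRNAs, miR-206-3p, miR-1-3p and both miR-133 forms among them, 0 were detected on any array. Of 6 fibroblast and smooth muscle markers, 5 were detected on every array. Their total signal, summed, was 18661 to 23962 intensity units on control and 17286 to 26775 on IL-6 arrays, before any scaling between arrays. None of these 5 passed the test between the groups, and miR-145-3p was not detected. The labelled cell type was thus not borne out by its defining miRNAs. Of 6 neural markers, miR-128-3p, miR-218a-5p and miR-219a-5p were detected on every array. Their summed total signal was 113 to 158 units in control and 132 to 194 with IL-6, and none passed the test. The other 3, miR-9a-5p, miR-9a-3p and miR-124-3p, were detected on no array. No endothelial or epithelial marker was detected, and of the blood markers only miR-223-3p was, on 1 IL-6 array. In bulk RNA, fewer cells that express a miRNA and less of it per cell cannot be told apart.

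Detected does not mean well above background in these files, and the members differed in this. Of the 10, 9 were detected on all 7 arrays, and the probe used for each of these was well above background on all 7. For miR-18a-5p, whose seed differs from the AAAGUGC family by 1 base, the signal was 11.3, 11.9 and 14.0 scaled units on control replicates 1, 2 and 3. On IL-6 replicates 1 to 4 it was 13.0, 12.8, 12.9 and 12.8. All 7 values were under 15.7, the floor set at the median over arrays of the lowest signal well above background, and the probe was well above background on IL-6 replicate 2 alone. It was called detected on 2 of 3 control arrays and on 4 of 4 IL-6 arrays. No fold change is given for it.

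The other arms of the same hairpins, and miR-363 and miR-92b, made up a list of 19 names, of which 17 were on the array. None of the 17 was detected on any array. These include miR-17-1-3p, miR-20a-3p and miR-92a-1-5p from chromosome 15, and miR-106b-3p, miR-93-3p and miR-25-5p from Mcm7. From the X-linked cluster miR-363-3p, which has the seed of miR-92a-3p, was also not detected. Signal was thus detected from 1 arm of each hairpin at most.

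**Figure D1:**
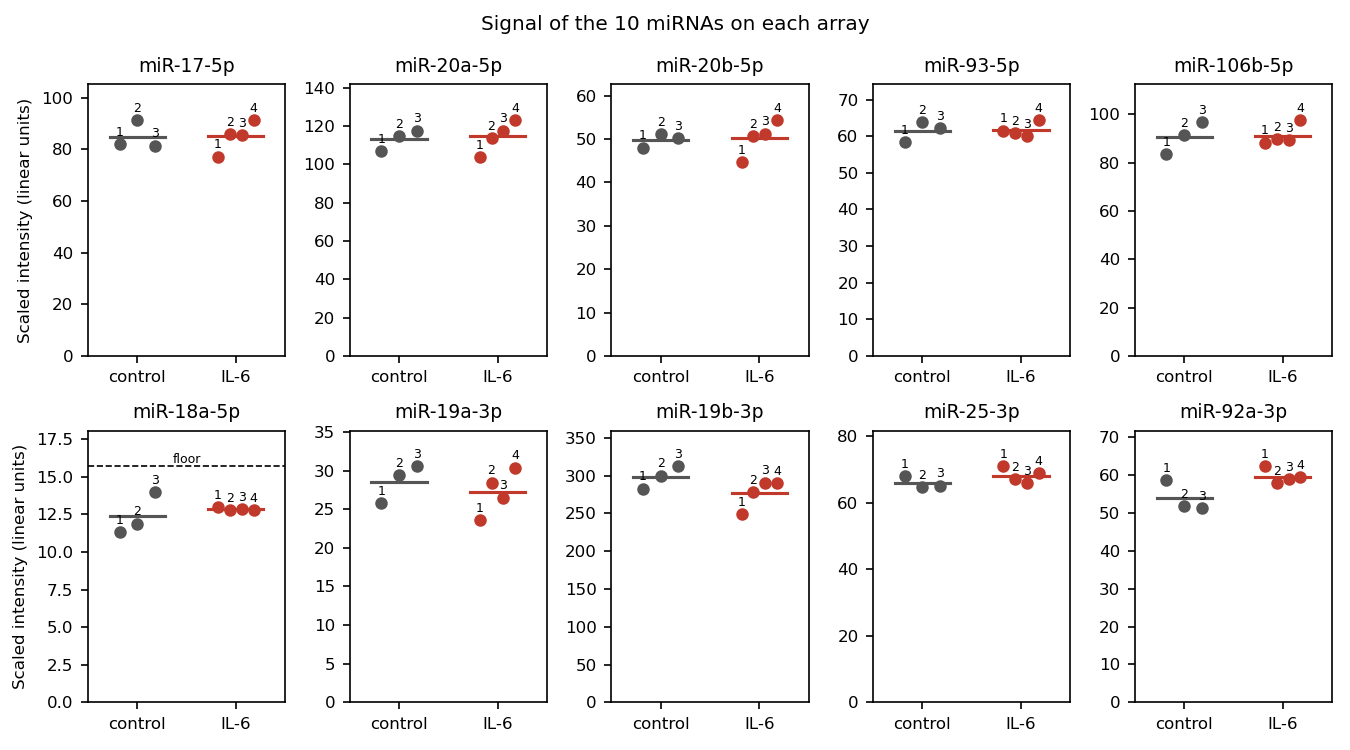
Scaled intensity (linear units, y axis from 0) of the 10 miRNAs on the 3 control and 4 IL-6 arrays; each point is 1 array with its replicate number, horizontal lines are group means, and the dashed line for miR-18a-5p is the floor. The groups overlap for every miRNA, and the miR-92a-3p values run from 51.2 to 58.5 on control and from 57.8 to 62.2 on IL-6 arrays.

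IL-6 was compared with control to ask whether proliferation-linked miRNAs differ when the cytokine is present during differentiation. None of the 10 members passed in the fit over all 181 tested miRNAs (limma, Benjamini-Hochberg adjusted p from 0.154 upward). Of these miR-18a-5p, at the floor on all 7 arrays, could not have passed. In the same fit 9.39% of all tested miRNAs were called, 4.97% as higher and 4.42% as lower with IL-6, and the number called fell from 17 to 0 without control replicate 1. At an unadjusted p under 0.05 there was 1 member, miR-92a-3p, where 27.1% of all tested miRNAs had such a p. None of the 9 members with a fold change had groups that did not overlap, against 22.1% of all tested miRNAs. The median log2 fold change was 0.0088 over the 9 members with a fold change and 0.015 over the 181.

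Within the AAAGUGC family the levels of the groups lay close together. miR-17-5p, which lowers Cdkn1a, had scaled intensities of 82.0, 91.2 and 81.4 on control replicates 1 to 3 and of 77.1, 86.0, 85.6 and 91.4 on IL-6 replicates 1 to 4. The lowest value was on an IL-6 array and the highest 2 were shared between the groups, so the groups overlapped over nearly their whole range. Its means were 84.9 ± 5.5 (SD, n = 3) and 85.03 ± 5.9 (SD, n = 4), a log2 fold change of 0.0016 ± 0.07 (SE). The 95% interval of the difference ran from -11.0% to 12.6%. miR-20a-5p, which targets E2f1, measured 107, 115 and 118 in control and 104, 114, 118 and 123 with IL-6. Again IL-6 replicate 1 was the lowest and IL-6 replicate 4 the highest array. The log2 fold change was 0.017 ± 0.07, with an interval from -9.57% to 13.2%.

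The X-linked miR-20b-5p followed the same order of IL-6 arrays, at 44.7, 50.6, 51.2 and 54.4 against 48.0, 51.1 and 50.3 in control. Its log2 fold change was 0.0088 ± 0.07, with an interval from -10.5% to 13.1%. From Mcm7, miR-93-5p, which also lowers Cdkn1a, measured 58.3, 63.7 and 62.1 in control and 61.5, 60.8, 60.1 and 64.4 with IL-6. Of the 4 IL-6 values 3 lay within the control range. Its log2 fold change was 0.0076 ± 0.04, with an interval from -6.16% to 7.69%. miR-106b-5p measured 83.5, 91.2 and 96.9 in control and 88.3, 89.6, 89.2 and 97.7 with IL-6. The control arrays spanned nearly the range of all 7. Its log2 fold change was 0.012 ± 0.06, with an interval from -9.12% to 11.9%. The 5 fold changes of this family ran from 0.0016 to 0.017 on the log2 scale, a range of 0.016. That range was 0.084 with the mean of a miRNA's probes, 0.127 with total gene signal and 0.129 with quantile normalization. Their closeness thus depends on the processing. Scaling by the median of probe ratios or by the 75th percentile of all probes, which shift every miRNA alike, put all 5 below 0, and the median of all tested miRNAs at -0.0063 and -0.12.

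The miR-19 family had lower means on the IL-6 arrays, and neither member passed the test. miR-19b-3p had the brightest signal of its family's probes, at 283, 300 and 312 in control and 249, 278, 291 and 290 with IL-6. IL-6 replicate 1 was the lowest array and control replicate 3 the highest. The means were 298 ± 15 (SD, n = 3) and 277 ± 19 (SD, n = 4), and the log2 fold change was -0.11 ± 0.07, with an interval from -17.0% to 3.77% (limma, Benjamini-Hochberg adjusted p = 0.381). Without IL-6 replicate 1 the log2 fold change was -0.058 ± 0.04. With quantile normalization it was -0.094 ± 0.02 (limma, Benjamini-Hochberg adjusted p = 0.0604). With replicate number as a block it was -0.13 ± 0.03 (limma, Benjamini-Hochberg adjusted p = 0.134). miR-19a-3p, the dimmest member with a fold change, measured 25.8, 29.4 and 30.5 in control and 23.6, 28.5, 26.5 and 30.4 with IL-6. Its log2 fold change of -0.072 ± 0.10 had the widest interval, from -19.9% to 13.1%. It ran from -0.14 without control replicate 1 to -0.0052 without IL-6 replicate 1. Both members turned to a positive sign without scaling between arrays and with spike-in scaling, where the median of all tested miRNAs lay at 0.17 and 0.19.

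The AUUGCAC family held the member with the largest fold change of the 9, miR-92a-3p, which is known for lowering Bcl2l11. This miRNA measured 58.5, 51.7 and 51.2 in control and 62.2, 57.8, 58.8 and 59.3 with IL-6. Control replicate 1 lay above IL-6 replicate 2, and the other 2 controls below all IL-6 arrays. The means were 53.8 ± 4.1 (SD, n = 3) and 59.5 ± 1.9 (SD, n = 4), a difference of 10.7% with an interval from 0.854% to 21.5%. The log2 fold change of 0.15 ± 0.06 did not pass after adjustment over all tested miRNAs (limma, Benjamini-Hochberg adjusted p = 0.154, and 0.015 to 1 over the alternatives). miR-25-3p, its partner from Mcm7, measured 67.8, 64.6 and 65.1 in control and 70.8, 67.1, 65.7 and 68.7 with IL-6. Its log2 fold change was 0.049 ± 0.03, with an interval from -2.36% to 9.55%, and 0.029 without IL-6 replicate 1. With spike-in scaling both passed, miR-92a-3p at 0.34 ± 0.06 and miR-25-3p at 0.24 ± 0.06 (limma, Benjamini-Hochberg adjusted p = 0.015 and 0.0394), and the median of all tested miRNAs there was 0.19.

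**Figure D2:**
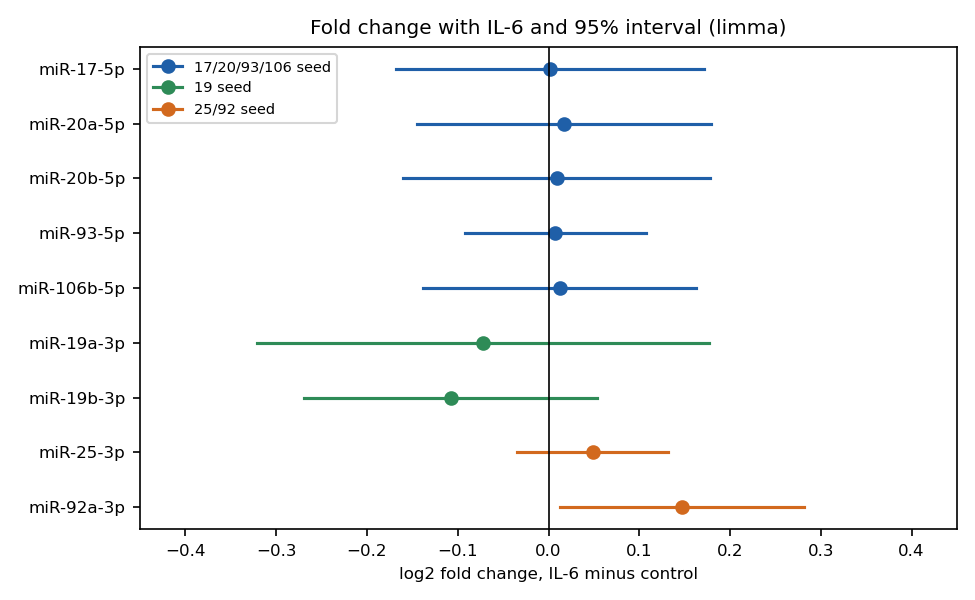
Log2 fold change of IL-6 minus control for the 9 members with a fold change (points) with 95% intervals from limma (lines), coloured by seed family. Of the 9 intervals only that of miR-92a-3p lies above 0, and it did not pass after adjustment over 181 tested miRNAs.

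The second, shorter probe was well above background on all 7 arrays for miR-19b-3p, miR-20a-5p, miR-20b-5p, miR-25-3p and miR-106b-5p, and its difference had the sign of the probe used in each. It pairs with the same 3′ end of the same miRNA, so it is not separate evidence. Its log2 difference for miR-20a-5p was 0.067, where the probe used gave 0.017. For miR-106b-5p it was 0.053 against 0.012, and for miR-20b-5p 0.0025 against 0.0088. For miR-93-5p the second probe lay at the floor on 6 of 7 arrays and cannot be compared. For miR-25-3p it gave a log2 difference of 0.11 and for miR-19b-3p -0.14. For miR-92a-3p it gave 0.17 and for miR-19a-3p -0.077, each from a probe well above background on 6 of 7 arrays and, for miR-19a-3p, at the floor on 2. The miR-17-5p probes differed most, at 0.0016 for the probe used and 0.18 for the second, which was well above background on 6 of 7 arrays. Each probe had 10 spots per array. Their coefficient of variation was 4.95% to 10.12% (median over arrays) for the probes used of the 9 members, and 22.9% for miR-18a-5p.

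The log ratio of a pair within an array does not depend on the scaling between arrays, and so shows changes of balance between members. The log2 ratio of miR-92a-3p to miR-17-5p was -0.66 ± 0.17 (SD, n = 3) in control and -0.51 ± 0.14 (SD, n = 4) with IL-6. The groups overlapped, and the difference of 0.15 ran from 0.065 without control replicate 2 to 0.23 without control replicate 1. That of miR-19b-3p to miR-17-5p, from the same chromosomes, was 1.81 ± 0.11 in control and 1.70 ± 0.04 with IL-6, and the groups overlapped here too. The difference of -0.11 ran from -0.16 without control replicate 2 to -0.046 without control replicate 3. The ratio of miR-20a-5p to miR-17-5p was 0.41 ± 0.10 and 0.43 ± 0.02, and that of miR-106b-5p to miR-17-5p was 0.092 ± 0.14 and 0.10 ± 0.06. Between Mcm7 and the other clusters, miR-93-5p over miR-17-5p differed by 0.0060 between the groups. miR-25-3p over miR-92a-3p was 0.29 ± 0.07 in control and 0.19 ± 0.03 with IL-6, a difference of -0.098. In all 7 pairs the groups overlapped.

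Slide column held a control and an IL-6 array in 3 of the slide's columns, and members were also compared within each. These differences come from the same values as the fold changes and are not separate evidence. How many of all 181 tested miRNAs had the same sign in the 3 columns was not counted. miR-92a-3p was higher on the IL-6 array in 3 of 3 columns, by 0.088, 0.18 and 0.21 on the log2 scale. With column as a block its log2 fold change was 0.16 ± 0.04 (limma, Benjamini-Hochberg adjusted p = 0.105). miR-25-3p was also higher in 3 of 3 columns, by 0.025 to 0.079, and 0.056 ± 0.02 with the block. miR-19b-3p was lower in 3 of 3 columns, with differences from -0.18 to -0.045, and -0.11 ± 0.04 with the block. miR-19a-3p was lower in 3 of 3, with differences from -0.15 to -0.0087, and -0.095 ± 0.04 with the block. In the AAAGUGC family, with fold changes of 0.0016 to 0.017, miR-17-5p was higher in 1 of 3 columns and the other 4 in 2 of 3. Fold changes this small leave the sign in a column open, so no contrast between families is drawn from these counts. With column as a block 0 of the 181 tested miRNAs, members included, passed after adjustment, and 52 had an unadjusted p under 0.05. IL-6 replicate 2 stood alone in its column, so the members' fold changes with the block equal those without that array.

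**Figure D3:**
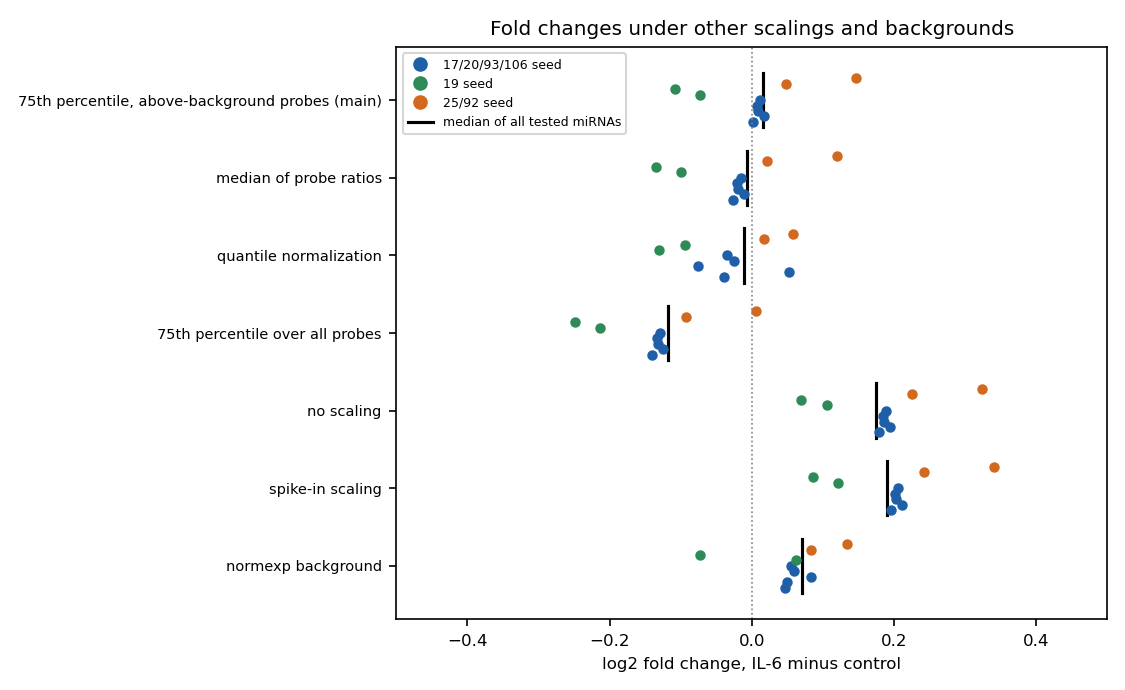
Log2 fold change of IL-6 minus control (x axis) for the 9 members, coloured by seed family, under 7 choices of scaling or background (y axis), with the median of all 181 tested miRNAs as a black bar. The members move with the black bar, from a members' median of -0.13 with the 75th percentile over all probes to 0.20 with spike-in scaling.

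The arrays differed in a way that crossed the groups. On IL-6 replicate 1, 7 of the 9 measured members lay below their own mean over the 7 arrays, with miR-19a-3p at -0.23, miR-19b-3p at -0.20 and miR-20b-5p at -0.16 on the log2 scale. The other 2 members, miR-92a-3p at 0.13 and miR-25-3p at 0.078, had their highest value there. The reverse was seen on control replicate 2, where miR-92a-3p was at -0.14 and miR-25-3p at -0.055 while the other 7 were above their means. On control replicate 1, again 7 members were below and only miR-92a-3p and miR-25-3p above. On IL-6 replicate 4 all 9 were above their means. The residual SD within groups was 0.043 (miR-25-3p) to 0.146 (miR-19a-3p) on the log2 scale. The middle value of the 9 was 0.0925 (miR-19b-3p), beside a median of 0.0931 for all tested miRNAs. The AUUGCAC pair thus lay on the other side of its mean from the other 7 members on 3 arrays, IL-6 replicate 1 and control replicates 1 and 2. On IL-6 replicate 1 miR-93-5p was barely below its mean, at -0.00067. On control replicate 3 miR-92a-3p was lowest, at -0.15, and miR-25-3p and miR-17-5p were also below their means. Each mean is over both groups, so a difference between the groups enters these deviations.

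**Figure D4:**
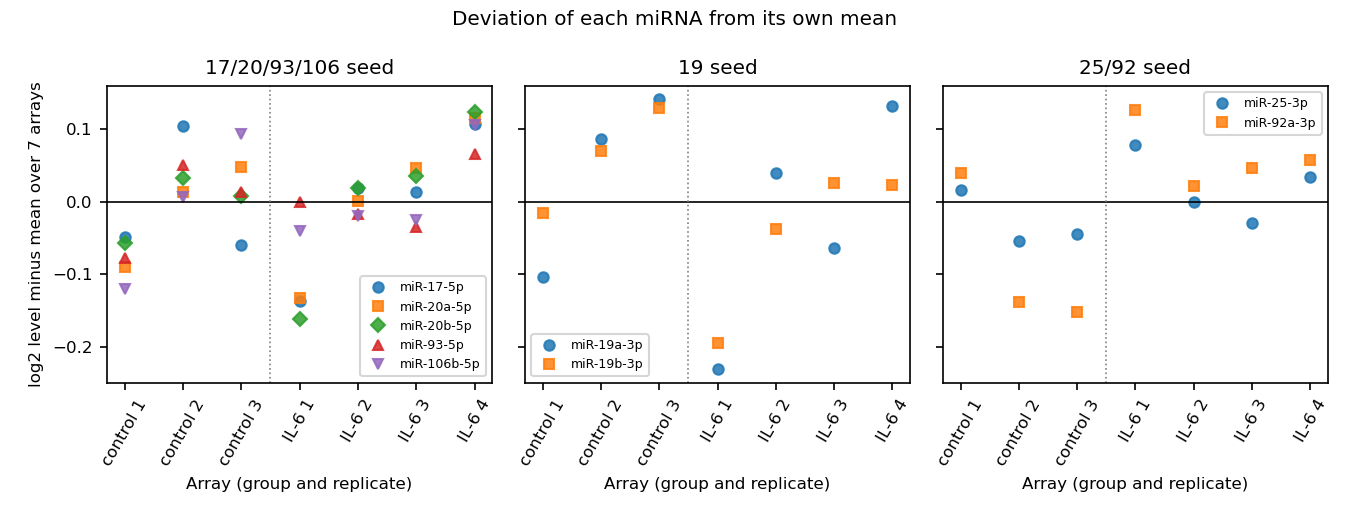
Log2 level of each of the 9 measured members minus its own mean over the 7 arrays (y axis), by array (x axis, controls left of the dotted line), in 1 panel per seed family. On IL-6 replicate 1 the miR-19 pair lies at -0.20 and -0.23 and miR-92a-3p at 0.13.

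The AUUGCAC pair and miR-93-5p are also the members with the highest share of G and C, 57.1% in miR-92a-3p, 52.2% in miR-93-5p and 50% in miR-25-3p. The lowest shares were 34.8% in miR-19a-3p and 39.1% in miR-19b-3p and miR-20a-5p. IL-6 replicate 1 had a mean spike-in signal of 12.60 (log2) where the other arrays had 12.71 to 12.87. The part of base composition or of spike-in signal in the deviations was not tested. The controls filled 1 row of the slide and the IL-6 arrays the other, so treatment cannot be told apart from slide row.

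The 3 tested miRNAs outside the set whose pattern over the 7 arrays was nearest to the mean of the members were miR-22-5p, miR-100-5p and miR-34a-5p. Their root mean square distance, after each was centred on its own mean, was 0.027, 0.028 and 0.035 on the log2 scale. The members themselves lay 0.035 to 0.12 from their mean, and the median of the 171 tested non-members was 0.10. A short distance here also follows from a small spread.

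As a counterpart, a list of 24 miRNAs known to lower cyclins, Cdk4, Cdk6 or other cell cycle genes was read in the same fit. Of its 24 names 23 were on the array and 19 were tested. In all 2 of the 19 were called, beside 9.39% of all tested miRNAs. One rose, let-7b-5p, which lowers cyclin D products, at a log2 fold change of 0.24 ± 0.04. Another fell, miR-34c-5p, a p53 target that restrains division, at -0.28 ± 0.04 (limma, Benjamini-Hochberg adjusted p = 0.0224 and 0.0143). The other 17 did not pass. Neither call held without control replicate 1 or with slide column as a block, where 0 of 181 passed. Of the 19, 15 had a positive and 4 a negative fold change, beside 99 and 77 of all 181. The median log2 fold change of the list was 0.070, beside 0.015 for all 181 tested miRNAs. The list holds several let-7 and miR-29 relatives, so its counts and median do not rest on 19 separate measurements. Of its members miR-195-5p, miR-497-5p, miR-503-5p and miR-449a-5p were detected on no array.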

How the data were processed

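Cy3-labelled total RNA was measured on rat miRNA arrays from Agilent, per the labels' protocols. The deposited files give an intensity per spot from Agilent's Feature Extraction 10.10.1.1 (file headers and the submitters' processing notes), and the processed signal is a background-subtracted intensity, linear and without scaling. On each array all 15095 spots of the deposited table match the scanner's total probe signal (tolerance 0.001), with medians from -1.35 to 0.10 intensity units.

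From these, outlier spots (2.88% to 3.84%) and control spots were left out; of the rest 0 were saturated. Spots were averaged per probe and divided by their 75th percentile per array, taken over 268 probes that all arrays showed well above background (a share of 0.5 of spots or more), keeping the mean level. Values under a floor of 15.7 were set to it before log2. Each miRNA took its brightest probe. The 181 miRNAs detected on every array of a group were tested with limma 3.58.1 in R 4.3.3 (lmFit, eBayes), Benjamini-Hochberg adjustment over all 181 and a threshold of 0.05. Over all tested miRNAs the median SE was 0.07, and precision is limited by the number of arrays. The fit was also run on simulated data with planted changes larger than those of the members. That run does not bear on changes of the members' size.

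The members and lists were chosen with earlier results of these data known. All members were to be named; of the other arms each one tested; of the cell cycle list those past the threshold, up to 4; and the 3 nearest patterns. Alternatives covered scaling, background, probes, signal, floor, filter, outliers, limma options, blocks and leaving out arrays. All arrays shared 1 slide. miRNA sequences and gene order were taken from RefSeq, GRCr8, where all 10 members matched.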

Additional observations from a re-analysis of the deposited data

Results flagged for a closer look

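Within the 4 IL-6 arrays, Dixon's test for a distant value was applied to 16 quantities, the levels of 9 members and 7 within-array ratios. Of these 2 exceeded its critical value at 95%, which chance exceeds in about 5% of groups. For miR-106b-5p, IL-6 replicate 4 stood at 6.61 (log2), with the other 3 arrays from 6.46 to 6.49, a ratio of gap to range of 0.855. The log2 ratio of miR-93-5p to miR-17-5p stood at -0.33 on IL-6 replicate 1, with the other 3 from -0.51 to -0.50, a ratio of gap to range of 0.937.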

How the results depend on the processing

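No member passed in 26 of 27 alternatives; with spike-in scaling 2 did. The count of 17 called miRNAs became 0 with the 75th percentile over all probes, without scaling, with normexp background, with no filter on detection and with slide column as a block. It became 33 with spike-in scaling, 5 with total gene signal, 11 with the floor raised by a factor of 2 and 47 with array weights. It was 0 to 17 with 1 array left out: 0 without control replicate 1, 2 without control replicate 2, 5 without IL-6 replicate 3 and 6 without IL-6 replicate 4. Chosen after seeing the data were averaging IL-6 replicates 3 and 4, which gave 6, and dropping control replicate 3 together with IL-6 replicate 1, which gave 31. The cause of these changes was not tested.

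The median of the members, 0.0082 with miR-18a-5p counted at 0, became -0.13 with the 75th percentile over all probes, 0.19 without scaling and 0.20 with spike-in scaling, and ran from -0.023 to 0.028 with 1 array left out. The median of all tested miRNAs there was -0.12, 0.17 and 0.19. The ratio of miR-19a-3p to miR-19b-3p differed by 0.14 and that of miR-25-3p to miR-92a-3p by -0.050 with normexp background, which adds 50 units. With the mean of a miRNA's probes miR-19b-3p over miR-17-5p differed by -0.21 and miR-93-5p over miR-17-5p by -0.083, and the latter by 0.099 with total gene signal.

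The sign of some fold changes turned, but that of miR-92a-3p in none of 27 alternatives. Several of these, such as the other floors, the filters and the limma trend, left its fold change at 0.15 unaltered. Its lowest value was 0.0056, with the 75th percentile over all probes. Another scaling by a constant per array shifts all miRNAs alike, so its turned signs restate the shift of all tested miRNAs. In the order miR-17-5p, miR-20a-5p, miR-20b-5p, miR-93-5p, miR-106b-5p, the log2 fold changes were -0.14, -0.12, -0.13, -0.13 and -0.13 when all probes set the 75th percentile, where miR-25-3p was -0.093. They were -0.026, -0.010, -0.019, -0.020 and -0.015 with the median of probe ratios and -0.061, -0.019, -0.014, -0.030 and -0.0016 with outlier spots kept. With quantile normalization miR-17-5p was -0.039, miR-20b-5p -0.076, miR-93-5p -0.024 and miR-106b-5p -0.034. With array weights miR-17-5p was -0.010 and miR-93-5p -0.015. With slide column as a block miR-17-5p was -0.0047. With IL-6 replicates 3 and 4 averaged miR-17-5p was -0.018, miR-20a-5p -0.0074 and miR-20b-5p -0.016. miR-19a-3p and miR-19b-3p were 0.11 and 0.070 without scaling and 0.12 and 0.086 with spike-in scaling. miR-19a-3p was 0.062 with normexp background and 0.045 with control replicate 3 and IL-6 replicate 1 both dropped. With 1 array left out miR-19a-3p ran from -0.14 to -0.0052, miR-19b-3p from -0.15 to -0.058, miR-92a-3p from 0.11 to 0.21, miR-25-3p from 0.029 to 0.070, miR-17-5p from -0.034 to 0.055, miR-20a-5p from -0.023 to 0.064, miR-20b-5p from -0.031 to 0.064, miR-93-5p from -0.029 to 0.035 and miR-106b-5p from -0.045 to 0.062.

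With replicate number as a block 3 miRNAs and no member were called, and the same 5 members were at -0.034, -0.019, -0.031, -0.013 and -0.021. Deviations of same-numbered arrays correlated across miRNAs at 0.52, -0.18 and 0.26, so the numbers were not taken as pairs. Those of arrays in the same slide column correlated at 0.52, 0.19 and 0.13, which does not establish pairs either. Signal over background limits miR-18a-5p, which lay at the floor.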
